A study of Mus musculus with 16 samples.

Results

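The Bcl2 family, whose proteins decide whether a cell commits to death through its mitochondria, was followed at the level of mRNA in hematopoietic stem cells, the marrow cells from which all blood cells derive. The 10 genes were Mcl1, Bcl2, Bcl2l1, Bax, Bak1, Bcl2l11, Bbc3, Pmaip1, Bid and Bad, taken by gene symbol from a table of 14829 genes, and all 10 were found and tested. Bone marrow of old and young mice was held for 1 h at 37 °C with dmPGE2 (prostaglandin E2 carrying methyl groups that slow its breakdown) or vehicle, and the stem cells were then sorted and their RNA sequenced. The marrow of each of 8 mice was divided between the treatments, which gave 4 libraries each of old dmPGE2, old vehicle, young dmPGE2 and young vehicle. The descriptions carry 2 dates, here date 2 and date 1, with 2 old and 2 young mice on each, and do not say what was done on them. The sources used here do not give strain, genotype, the ages in months, the dose of dmPGE2 or the antigens used to sort.

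Family members fall into classes by role. MCL1, BCL2 and BCL-XL (the product of Bcl2l1) are guardians that hold the other members in check, BAX and BAK (from Bak1) open pores in the outer mitochondrial membrane, and the BH3-only proteins, among them BIM (Bcl2l11), PUMA (Bbc3), NOXA (Pmaip1), BID and BAD, carry death signals to either class. Blood-forming stem cells are known to need MCL1 to survive. Prostaglandin E2 acts in part through receptors that raise cyclic AMP and is known as a survival signal for these cells.

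Mcl1, Bcl2 and Bid are the members called different between old and young mice (adjusted p under 0.05 over all genes). Of all genes, 14.3% were called by age with dmPGE2 and 17.3% with vehicle. Some age calls of Mcl1 and Bid ended under other settings, as given below. Mcl1 was also called after dmPGE2 on date 1. The promoters of Mcl1, Bcl2 and Bid are shown because some prostaglandin E2 receptors raise cyclic AMP. The cyclic AMP transcription factor CREB binds the motif TGACG or its reverse complement CGTCA. Mcl1 lies on chromosome 3 at chr3:95658721-95663178 on the plus strand, Bcl2 on chromosome 1 at chr1:106538178-106714290 on the minus strand and Bid on chromosome 6 at chr6:120893119-120916820 on the minus strand, all protein-coding (mm10, positions from the deposited table). Each sequence runs from 250 bases before to 30 bases after a RefSeq transcription start (GRCm38.p6), on the strand of the gene, and capitals mark either form of the motif. The windows cover chr3:95658471-95658750 for Mcl1, chr1:106714261-106714540 for Bcl2 and chr6:120916795-120917074 for Bid.
Mcl1: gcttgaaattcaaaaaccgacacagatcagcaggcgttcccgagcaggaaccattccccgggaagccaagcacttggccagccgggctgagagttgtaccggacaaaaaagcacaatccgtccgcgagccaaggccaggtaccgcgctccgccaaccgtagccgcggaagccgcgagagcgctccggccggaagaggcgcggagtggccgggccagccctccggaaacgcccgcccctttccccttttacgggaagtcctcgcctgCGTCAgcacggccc
Bcl2: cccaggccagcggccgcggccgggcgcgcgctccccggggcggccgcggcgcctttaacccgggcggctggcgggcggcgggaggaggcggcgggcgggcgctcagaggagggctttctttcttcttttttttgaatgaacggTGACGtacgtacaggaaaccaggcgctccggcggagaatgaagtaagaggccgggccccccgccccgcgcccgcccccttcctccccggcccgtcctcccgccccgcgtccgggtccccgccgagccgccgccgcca
Bid: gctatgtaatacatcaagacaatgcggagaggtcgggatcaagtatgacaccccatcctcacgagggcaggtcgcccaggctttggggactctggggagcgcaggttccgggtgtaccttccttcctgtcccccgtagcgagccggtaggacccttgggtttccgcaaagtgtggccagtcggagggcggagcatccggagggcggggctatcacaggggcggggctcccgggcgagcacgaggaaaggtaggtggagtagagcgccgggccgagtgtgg
Counted from the start as position 1, the match began at position 17 in Mcl1, downstream of the start, and at -107 in Bcl2, and these letters were not in the window of Bid. Of 15 such windows of 9 members, 3 held the motif, 1 each of Mcl1, Bcl2 and Bbc3, while 19.9% of all 32851 windows in the RefSeq table held it. The full palindrome TGACGTCA was in 0 of the 15 windows and in 1.74% of all windows. Pmaip1 is described without its promoter. The matches are a description of letters and were tied to no binding data.

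Libraries held 12960704 to 19226963 counts. The 12 stem cell marker genes (Kit, Slamf1, Procr, Mecom and others) were all detected in every library. They summed to 3065 to 4450 CPM (counts per 1000000 counts of the library) on date 2 and 4719 to 5884 CPM on date 1. Detection does not test the labelled stem cell identity, since all 10 neutrophil markers were also detected in every library of date 2. Sums of erythroid, B cell, T and NK cell, endothelium and megakaryocyte markers overlapped between the dates. Those of neutrophil, myeloid progenitor and monocyte markers did not. The 10 neutrophil markers summed to 726 to 1464 CPM on date 2 and to 4 to 10 CPM on date 1, 7 myeloid progenitor markers to 1360 to 3204 CPM and 121 to 305 CPM, and 6 monocyte markers to 183 to 503 CPM and 15 to 35 CPM. On date 2 these sums also differed by age, with 726 to 798 CPM in old and 993 to 1464 CPM in young libraries for the neutrophil markers. In bulk libraries of this kind, fewer cells of a type and less RNA per cell cannot be told apart. Bad, Bak1, Bax and Bcl2 share 34.0%, 19.8%, 22.1% and 7.2% of their exonic bases with an overlapping gene (GENCODE vM21), on the opposite strand except for Bax. The sources used here do not give the strand setting of the counting or how reads in shared bases were treated. The counts of these members can include reads of those genes or miss reads of their own. For Bax a strand setting would not separate such reads.

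Mcl1 mRNA was the most abundant of the family in all 16 libraries, and Bak1 mRNA had the lowest mean. Per exonic length, in RPKM (CPM per kilobase of exon), Mcl1 averaged 264 ± 32.5 in old dmPGE2, 170.5 ± 46.7 in old vehicle, 207 ± 18.2 in young dmPGE2 and 135 ± 42.3 in young vehicle (SD, n = 4 mice each). Bax, a pore former, came next with group means of 55.9 to 62.4 RPKM, and Bid, which is activated when caspase 8 cuts it, had 29.2 to 39.96 RPKM. In each of the 4 groups Mcl1, Bax and Bid kept these places without overlap with the next member.

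Below them, several neighbours overlapped. Bad averaged 23.4 ± 2.90 RPKM over all libraries, Bcl2l1 22.5 ± 1.98 RPKM and Bcl2 16.6 ± 3.84 RPKM (SD, n = 16 libraries of 8 mice), and the ranges of Bad and Bcl2l1 overlapped in every group. In old mice Bcl2 overlapped Bcl2l1 in both arms, and in young mice it lay below Bad and Bcl2l1 in both. Bbc3 followed at 8.49 ± 1.34 RPKM, overlapped Bcl2 in young dmPGE2 and lay above Bcl2l11 in all libraries. Bcl2l11 (3.96 ± 0.819 RPKM), Pmaip1 (3.31 ± 3.44 RPKM) and Bak1 (1.53 ± 0.563 RPKM) stood last by mean and overlapped as neighbours. In young vehicle Pmaip1 also overlapped Bbc3, with 11.3 RPKM in mouse 483 against 9.10 RPKM for Bbc3. In the 4 vehicle libraries of date 1 Pmaip1 (0.0211 to 0.474 RPKM) lay below Bak1 (0.892 to 1.99 RPKM). It did so too in the young dmPGE2 libraries of date 1, with 0.904 against 1.03 RPKM in mouse 477 and 0.549 against 0.649 RPKM in mouse 478. Relative to its level Pmaip1 had the widest range of the family, from 0.0211 to 11.3 RPKM.

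**Figure D1:**
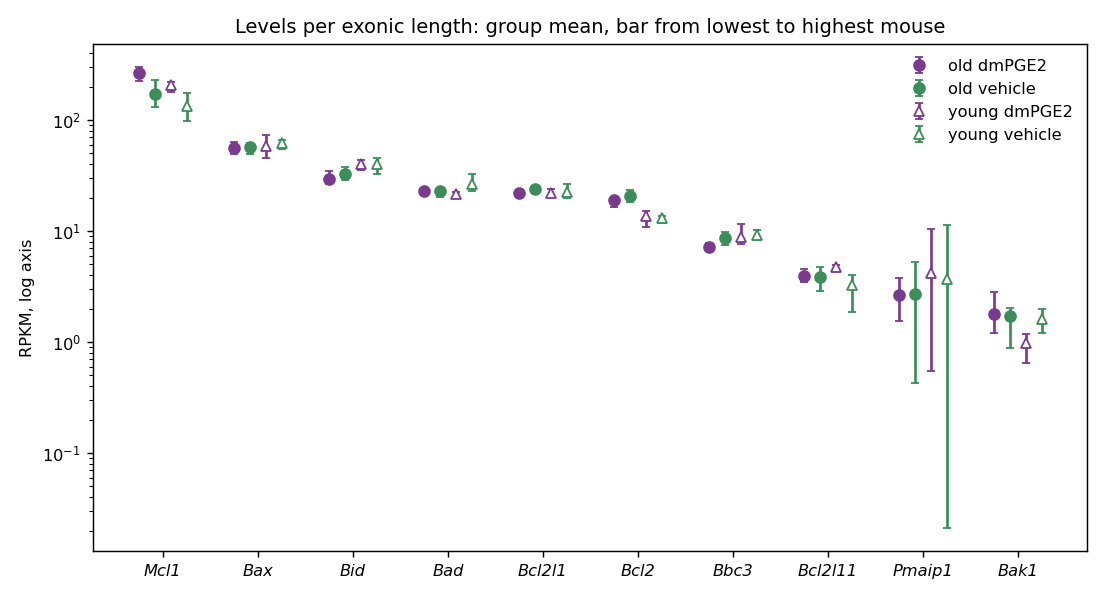
Level of each member per exonic length in RPKM on a log axis. Points are means of 4 mice in old dmPGE2, old vehicle, young dmPGE2 and young vehicle, and bars run from the lowest to the highest mouse. Mcl1 stood highest in all 4 groups, and the bars of Pmaip1 were the longest.

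The first question was what 1 h of dmPGE2 does to the family. Mcl1 was higher with dmPGE2 in 8 of 8 mice, but the size of its rise differed between the dates, and Pmaip1 rose on date 1. None of the other 8 members was called in any comparison of dmPGE2 with vehicle. A member was called where its adjusted p was under 0.05 in edgeR's quasi-likelihood test over all genes.

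On date 1, the Mcl1 level was 959 and 1047 CPM with dmPGE2 in old mice and 752 and 747 CPM with dmPGE2 in young mice, against 469 and 455 CPM with vehicle in old mice and 346 and 339.6 CPM with vehicle in young mice. Every dmPGE2 library was above every vehicle library, and the rise was 2.04-fold to 2.30-fold in each mouse. The fitted change was log2 1.18 ± 0.05 (SE, 4 mice, adjusted p = 3.55e-08), a 2.27-fold rise. On date 2, Mcl1 had 894 and 777 CPM with dmPGE2 in old mice and 766 and 629 CPM with dmPGE2 in young mice, against 795 and 659 CPM with vehicle in old mice and 612 and 583 CPM with vehicle in young mice. The 2 treatments overlapped there, although each mouse was 1.08-fold to 1.25-fold higher with dmPGE2. The fitted change on date 2 was log2 0.23 ± 0.05 (SE, 4 mice, adjusted p = 0.114), which did not pass the threshold in edgeR and did with DESeq2 (adjusted p = 0.00175). The difference of the 2 changes was itself called, at log2 -0.95 ± 0.07 (date 2 minus date 1, SE, adjusted p = 1.35e-05). The terms for date were chosen with earlier results of these data known. The calls by date are therefore no independent test of a difference between the dates.

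The other guardians had values near 0. Bcl2, the founding member, had a log2 change of 0.02 ± 0.08 on date 2 and -0.02 ± 0.08 on date 1 (SE, 4 mice each), and Bcl2l1 one of -0.01 ± 0.10 on date 2 and -0.06 ± 0.10 on date 1. Single mice went both ways: Bcl2 ran from 0.84 to 1.29 times and Bcl2l1 from 0.81 to 1.18 times the vehicle level.

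**Figure D2:**
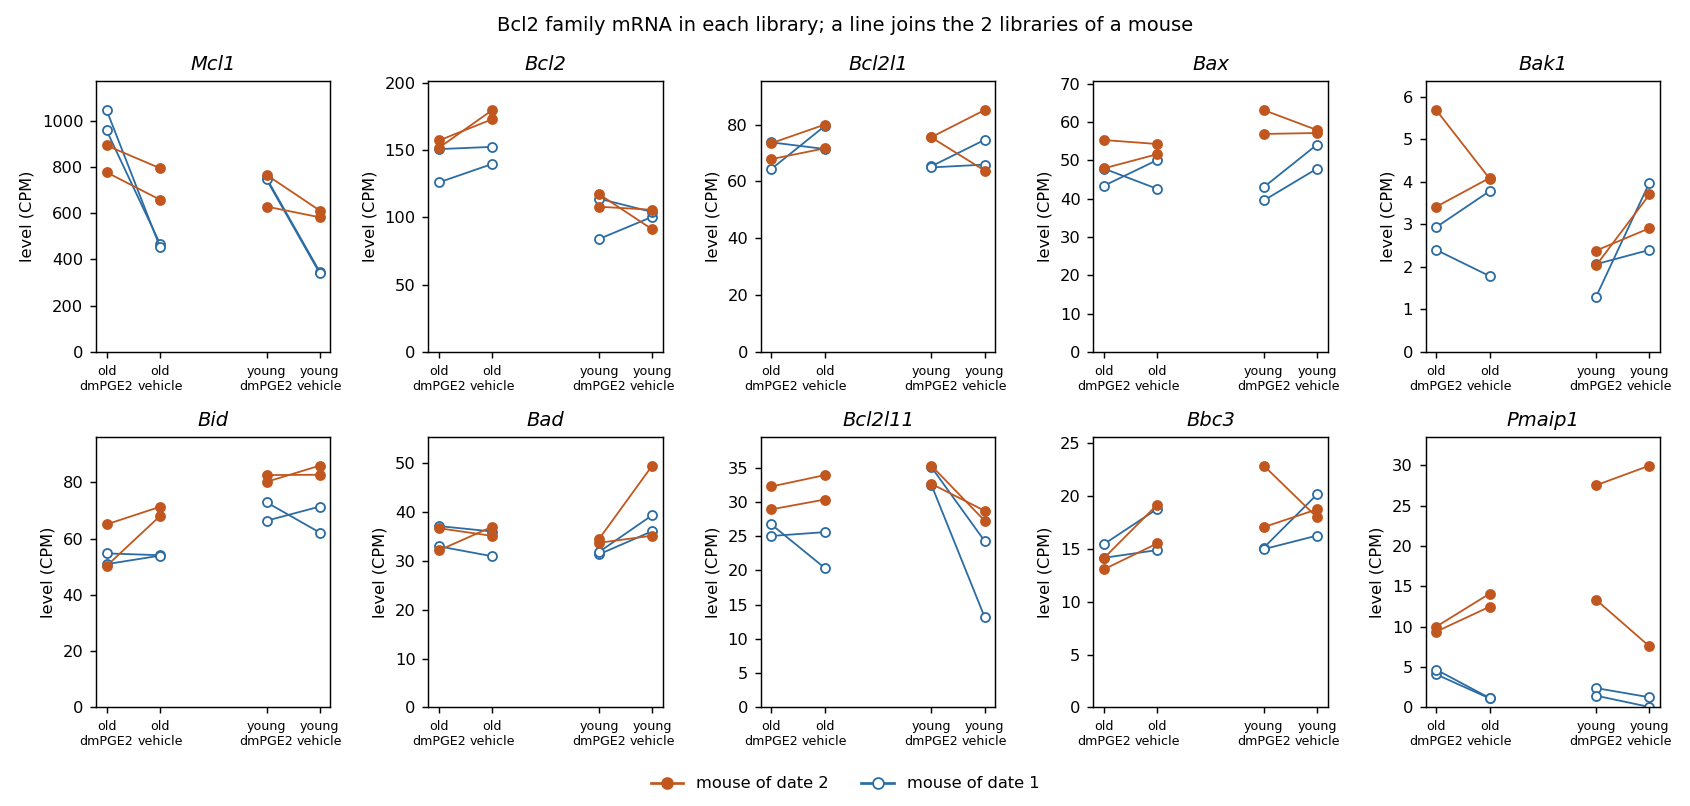
Level of each member in every library, in CPM on linear axes that start at 0, with dmPGE2 left of vehicle and old left of young. Lines join the libraries of a mouse, filled orange on date 2 and open blue on date 1. The lines of Mcl1 fall steeply towards vehicle on date 1 and slightly on date 2. Its dmPGE2 libraries overlap in part between the dates, at 629 to 894 CPM on date 2 and 747 to 1047 CPM on date 1.

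Neither pore former was called. Bax had a log2 change of 0.03 ± 0.10 on date 2 and -0.10 ± 0.10 on date 1. Bak1 rested on 25 to 87 counts per library, and its changes of -0.21 ± 0.44 on date 2 and -0.39 ± 0.45 on date 1 have errors too wide to place it. In young mice its value was log2 -0.72 ± 0.42 (adjusted p = 0.514), lower in 4 of 4 mice.

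Among the BH3-only members, Pmaip1 rose on date 1. Its counts there were 74 and 78 with dmPGE2 in old mice and 43 and 28 with dmPGE2 in young mice, against 19 and 21 with vehicle in old mice and 22 and 1 with vehicle in young mice, or 1.46 to 4.68 CPM with dmPGE2 and 0.0561 to 1.26 CPM with vehicle. All 4 dmPGE2 libraries were above all 4 vehicle libraries, but the nearest had overlapping exact 95% counting intervals. These were mouse 478 with dmPGE2 (0.968 to 2.10 CPM) and mouse 477 with vehicle (0.788 to 1.90 CPM). Intervals of dmPGE2 and vehicle also overlapped within mouse 477, and did not within mice 478, 479 and 480. The library with 1 count has an interval of 0.00142 to 0.313 CPM. The fitted change was log2 1.95 ± 0.40 (SE, adjusted p = 0.0196). Without mouse 477 the change was larger, at log2 3.27 ± 0.47 (adjusted p = 0.00425). The call of Pmaip1 ended without mouse 478 (log2 1.48, adjusted p = 0.0720), mouse 479 (1.99, 0.102) or mouse 480 (1.93, 0.125), without the replicate block (0.133) and in a fit of date 1 alone (0.0572). On date 2 Pmaip1 had 10.01 and 9.39 CPM with dmPGE2 in old mice and 27.5 and 13.3 CPM with dmPGE2 in young mice, against 14.1 and 12.5 CPM with vehicle in old mice and 29.95 and 7.56 CPM with vehicle in young mice. It was lower with dmPGE2 in 3 of 4 mice there, at log2 -0.04 ± 0.32 (adjusted p = 0.989). The difference between the dates, log2 -1.99 ± 0.51, did not pass (adjusted p = 0.141).

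Bcl2l11, which encodes BIM, came close to the threshold on date 1. It had 25.0 and 26.7 CPM with dmPGE2 in old mice and 35.1 and 32.5 CPM with dmPGE2 in young mice, against 25.6 and 20.4 CPM with vehicle in old mice and 24.3 and 13.2 CPM with vehicle in young mice. The groups overlapped in old mice and not in young mice. The fitted change was log2 0.60 ± 0.15 (SE, adjusted p = 0.0636), higher in 3 of 4 mice, and it passed with DESeq2 (adjusted p = 0.0312), without mouse 477 (0.0400) and in a fit of date 1 alone (0.0360). On date 2 the change of Bcl2l11 was log2 0.13 ± 0.15 (adjusted p = 0.873).

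The remaining BH3-only members were not called on either date. Bbc3, a p53 target that encodes PUMA, had log2 changes of -0.10 ± 0.16 on date 2 and -0.17 ± 0.16 on date 1, and was lower with dmPGE2 in 7 of 8 mice. Bid had -0.15 ± 0.10 on date 2 and 0.07 ± 0.10 on date 1. Bad, which growth factor kinases switch off, had -0.16 ± 0.12 on date 2 and -0.04 ± 0.12 on date 1 (SE, 4 mice each).

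**Figure D3:**
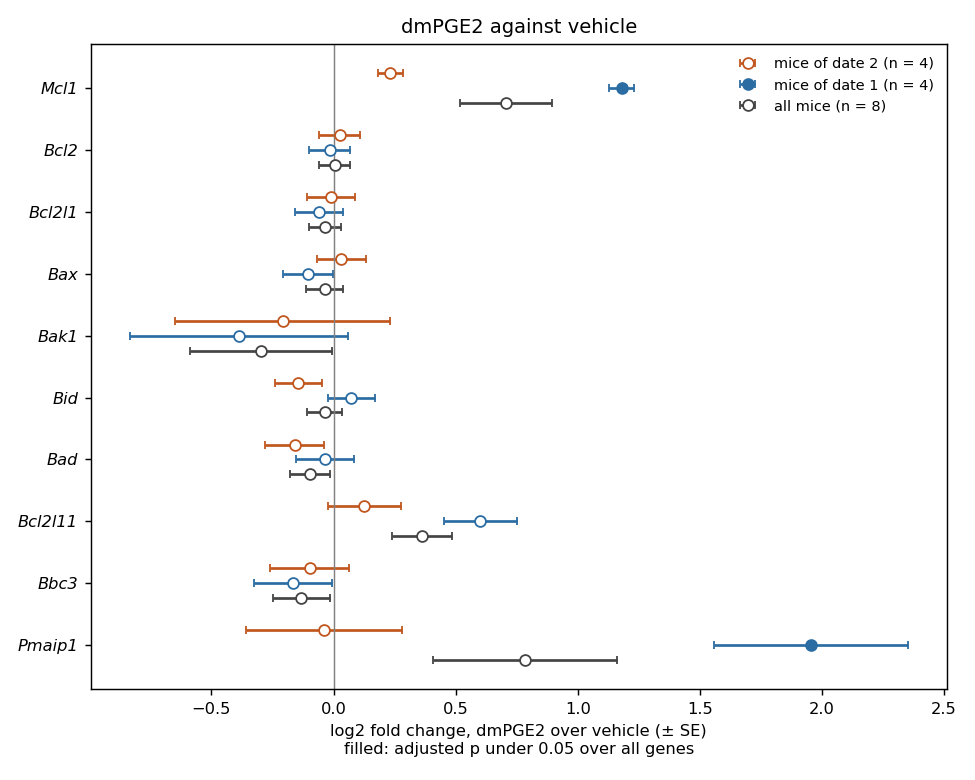
Fitted log2 fold change of dmPGE2 over vehicle with its SE for each member, from the 4 mice of date 2, the 4 mice of date 1 and all 8 mice. Filled points have an adjusted p under 0.05 over all genes. The filled points are those of Mcl1 and Pmaip1 on date 1, at 1.18 and 1.95.

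In counts, 0 of the 10 members were called on date 2, where 0.387% of 13942 genes were called, with 1 member at an unadjusted p under 0.05 and 1 called by DESeq2. On date 1, 2 of 10 were called, both higher, where 2.93% of genes were called. For the difference between the dates it was 1 of 10, against 1.08% of genes. In the fit over all mice with no terms for date, edgeR called 0 of 10, where 0.610% of genes were called, with 2 at an unadjusted p under 0.05. Mcl1 had log2 0.71 ± 0.19 in that fit (SE, 8 mice, adjusted p = 0.209). It was called by DESeq2 (adjusted p = 0.00649), without robust dispersion (0.0465) and with terms for date (1.85e-07). Bcl2l11 had log2 0.36 ± 0.12 (adjusted p = 0.231) and Pmaip1 0.78 ± 0.38 (adjusted p = 0.423).

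The second question was whether the response depended on age. Mcl1 changed by log2 0.71 ± 0.27 in old mice and 0.70 ± 0.27 in young mice (SE, 4 mice each), and the difference was 0.02 ± 0.38 (adjusted p = 0.997). Bcl2l11 had 0.11 ± 0.17 in old mice, where 1 of 4 was higher with dmPGE2, and 0.62 ± 0.17 in young mice, where 4 of 4 were higher, with a difference of -0.51 ± 0.24 that did not pass (adjusted p = 0.739). By edgeR, 0 of 10 members were called in old mice, in young mice or for the difference, as were 0% of the 13942 genes in each. At an unadjusted p under 0.05 there were 1, 3 and 0 members among 1096, 1785 and 955 genes. DESeq2 called 114, 277 and 17 genes and no member. With terms for date in the fit, edgeR called 210, 257 and 1 genes, among them Mcl1 in old mice (log2 0.71 ± 0.05, adjusted p = 6.51e-06) and in young mice (0.70 ± 0.05, 8.14e-06) and no member for the difference.

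**Figure D4:**
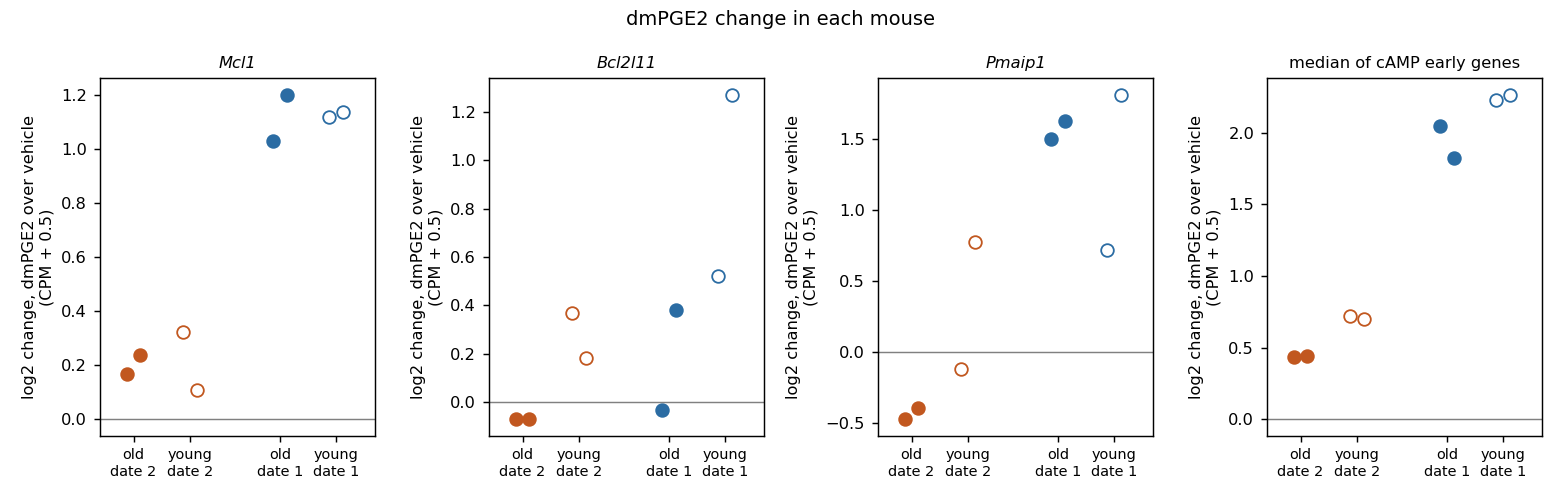
Change with dmPGE2 in each mouse, on the log2 scale of CPM + 0.5, for Mcl1, Bcl2l11, Pmaip1 and the median of 16 genes known to respond early to cyclic AMP. Filled points are old and open points young mice, orange on date 2 and blue on date 1. The 4 mice of date 1 lie between 1.03 and 1.20 for Mcl1, above the 4 mice of date 2 at 0.11 to 0.32.

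Genes known to respond early to cyclic AMP differed between the dates as well. Of 16 on the list (Crem, Nr4a1, Fos, Junb and others), 9 rose on date 2 (median log2 0.57) and 15 rose on date 1 (median 1.99), where the median of all genes was -0.00 on both, and 14 had a called difference. Per mouse, the median of this list was 0.44 to 0.72 on date 2 and 1.82 to 2.26 on date 1. Among 23 known controllers of the family, 1 rose on date 2 and 6 rose on date 1. Beside these counts for both lists, 0.387% of 13942 genes were called on date 2, 2.93% on date 1 and 1.08% for the difference. Atf4, a stress transcription factor known to raise Pmaip1 under stress, rose by log2 0.44 ± 0.06 on date 2 (adjusted p = 0.00750) and by 1.44 ± 0.06 on date 1 (adjusted p = 3.94e-08). Zfp36l1, which destabilizes mRNA, rose by 1.17 ± 0.11 on date 1, and Ddit3 by 0.70 ± 0.11 and Mdm4, an inhibitor of p53, by 0.54 ± 0.10.

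Of 18 p53 target genes, 2 rose on date 2, and 5 rose and 1 fell on date 1. The list counts of this paragraph stand beside 0.387% of all genes called on date 2 and 2.93% on date 1. They are not read as results about the lists. Cdkn1a, a cell cycle inhibitor, changed by log2 1.06 ± 0.09 on date 2 and 3.98 ± 0.11 on date 1, and Btg2 by 0.84 ± 0.07 and 3.81 ± 0.08. The list median was 0.06 on date 2 and 0.25 on date 1. Of 18 genes of the caspase cascade, which acts downstream of the family, 1 was called on date 1, Birc6, an inhibitor of apoptosis (log2 0.38 ± 0.09, adjusted p = 0.0468). On date 2 edgeR called 0 of them, with 1 at an unadjusted p under 0.05. Of 13 death receptor genes edgeR called 0 on date 2 and 0 on date 1, with 1 and 4 at an unadjusted p under 0.05. Of 12 tested genes among 17 other Bcl2 family members (Bcl2l2, Bok, Bmf and others) it called 0 on each date, with 1 and 1.

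Genes whose per-mouse change was most like that of Mcl1 over the 8 mice were Hes1 (Pearson r = 0.994), Klf2 (0.991) and Ccrl2 (0.990), out of 10859 genes compared. For Pmaip1 they were Slc3a1 (0.974), Pigm (0.970) and Trmt10c (0.949). The 8 mice share 2 dates, and the values are a description with no test.

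The third question was how the family differed between old and young mice. Bcl2 and Mcl1 mRNA were higher and Bid mRNA was lower in old mice, in the dmPGE2 libraries and in the vehicle libraries. These were 3 of 10 members in dmPGE2 libraries, where 14.3% of 13279 genes were called, and 3 of 10 in vehicle libraries, where 17.3% of 13369 genes were called. Both arms come from the same mice and are no independent repeat of each other. The counts are not read as a result about the family, and the values of its members follow.

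The Bcl2 level after dmPGE2 was 152 and 157 CPM on date 2 and 151 and 126 CPM on date 1 in old mice, against 117 and 108 CPM on date 2 and 83.9 and 114 CPM on date 1 in young mice. With vehicle it was 179.9 and 173 CPM on date 2 and 153 and 139.8 CPM on date 1 in old mice, against 91.2 and 106 CPM on date 2 and 100.5 and 104 CPM on date 1 in young mice. Old and young mice did not overlap in either arm. The difference was log2 0.51 ± 0.10 with dmPGE2 (SE, 4 mice each, adjusted p = 0.00784) and 0.68 ± 0.09 with vehicle (adjusted p = 0.000637), or 1.42-fold and 1.60-fold. Fits within a date, here and below, had only 2 mice of each age. In them Bcl2 differed with vehicle by 0.84 ± 0.12 on date 2 (adjusted p = 0.0198) and 0.53 ± 0.11 on date 1 (0.0237). With dmPGE2 it differed by 0.47 ± 0.13 on date 2 (0.116) and 0.55 ± 0.14 on date 1 (0.0230).

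Mcl1 was higher in old mice by log2 0.38 ± 0.08 with dmPGE2 (adjusted p = 0.0133) and by 0.36 ± 0.07 with vehicle (adjusted p = 0.00802), about 1.3-fold in each. The call with dmPGE2 ended without mouse 477, 478, 480 or 484 (adjusted p = 0.0516 to 0.0592). After dmPGE2 the 4 old mice (777 to 1047 CPM) lay above the 4 young mice (629 to 766 CPM). With vehicle old mice (455 to 795 CPM) and young mice (339.6 to 612 CPM) overlapped, but within a date they did not. Fitted within a date, the comparison had 2 mice of each age. The difference in Mcl1 with dmPGE2 was then 0.28 ± 0.14 on date 2 (adjusted p = 0.371) and 0.49 ± 0.06 on date 1 (0.000507). With vehicle it was 0.29 ± 0.11 on date 2 (0.217) and 0.45 ± 0.09 on date 1 (0.0181).

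Bid had 50.3 and 65.1 CPM after dmPGE2 on date 2 and 54.8 and 50.9 CPM on date 1 in old mice, against 80.2 and 82.6 CPM on date 2 and 72.9 and 66.4 CPM on date 1 in young mice. With vehicle it had 68.0 and 71.3 CPM on date 2 and 54.1 and 53.9 CPM on date 1 in old mice, against 85.96 and 82.7 CPM on date 2 and 62.2 and 71.4 CPM on date 1 in young mice. Old mice lay below young mice after dmPGE2, and with vehicle only within each date. The difference was log2 -0.41 ± 0.10 with dmPGE2 (adjusted p = 0.0191) and -0.29 ± 0.09 with vehicle (adjusted p = 0.0427). The call of Bid with dmPGE2 ended without mouse 477, 480 or 484 (adjusted p = 0.0606 to 0.0657) and was 0.220 within date 2 and 0.0673 within date 1. The call with vehicle was at the edge of the threshold, since it ended under 12 of 15 alternatives, among them RLE size factors (adjusted p = 0.0501), and was 0.299 within date 2 and 0.250 within date 1.

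**Figure D5:**
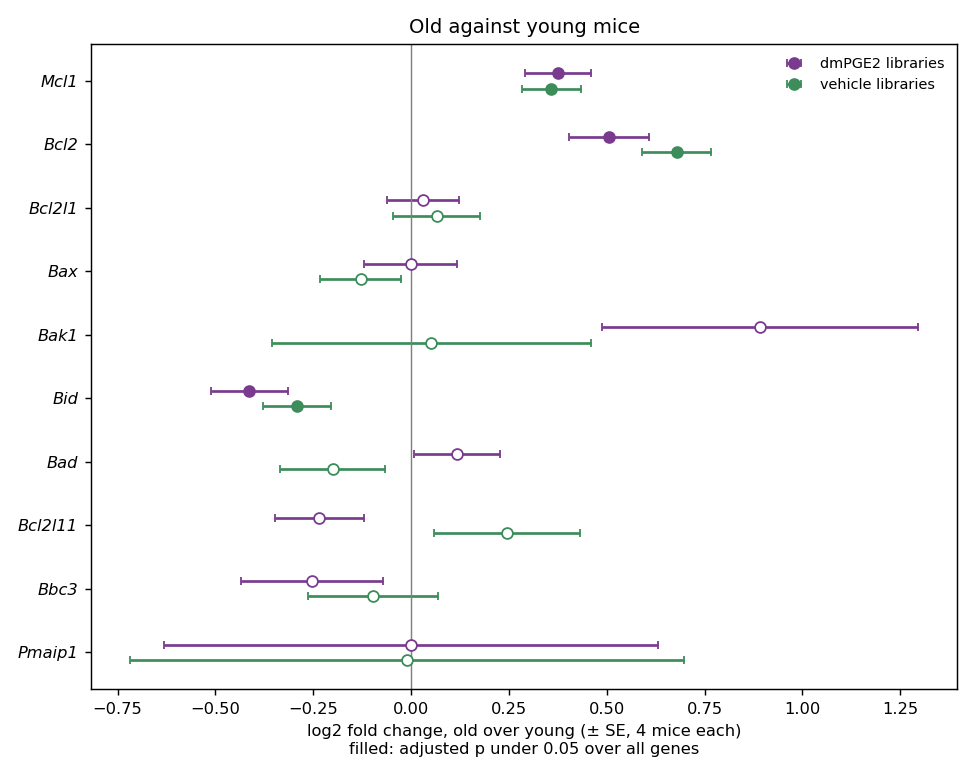
Fitted log2 fold change of old over young mice with its SE for each member, in the dmPGE2 libraries above and the vehicle libraries below (4 mice of each age, with a term for date). Filled points have an adjusted p under 0.05 over all genes. Bcl2 and Mcl1 lie right of 0 and Bid lies left of 0 in both.

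The other 7 members were not called by age. Bcl2l1 differed by log2 0.03 ± 0.09 with dmPGE2 and 0.07 ± 0.11 with vehicle, and Bax by -0.00 ± 0.12 and -0.13 ± 0.10. Bcl2l11 had -0.23 ± 0.11 with dmPGE2 (adjusted p = 0.215), where the 4 old mice (25.0 to 32.2 CPM) lay below the 4 young mice (32.5 to 35.3 CPM), and 0.25 ± 0.19 with vehicle, where they overlapped. Bak1 had 0.89 ± 0.40 with dmPGE2 (adjusted p = 0.180), with no overlap between old mice (2.40 to 5.69 CPM) and young mice (1.30 to 2.38 CPM), and 0.05 ± 0.41 with vehicle. Bbc3, Pmaip1 and Bad had values of -0.25 to 0.12 with dmPGE2 and -0.20 to -0.01 with vehicle.

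Sums of marker genes differed by age as well. The 6 megakaryocyte markers, of which Vwf and Itga2b are also made by stem cells, were higher in old libraries on both dates, with 907 to 1292 CPM in old and 449 to 630 CPM in young libraries on date 2, and 1058 to 1191 CPM in old and 477 to 609 CPM in young libraries on date 1. Myeloid progenitor markers were lower in old libraries on date 2 (1360 to 1494 CPM in old, 2190 to 3204 CPM in young) and higher in old libraries on date 1 (260 to 305 CPM in old, 121 to 165 CPM in young). Neutrophil markers were lower in old libraries on date 2, as given above, and summed to 4 to 6 CPM in old and 6 to 10 CPM in young libraries on date 1. Stem cell markers were higher in old libraries on date 2 (4336 to 4450 CPM in old, 3065 to 3309 CPM in young) and overlapped on date 1. The part of these sums in the age differences of Bcl2, Mcl1 and Bid was not tested.

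Around the family, Birc5, an inhibitor of apoptosis that dividing cells make, was lower in old mice, at log2 -1.06 ± 0.12 with dmPGE2 (adjusted p = 0.000313) and -1.38 ± 0.17 with vehicle (adjusted p = 0.000527). It was among 2 of 18 caspase cascade genes called with dmPGE2 and 3 with vehicle, all lower, with list medians of -0.12 and -0.11. Of 23 controllers of the family, 5 were higher and 1 lower with dmPGE2, and 4 were higher and 1 lower with vehicle. These counts stand beside 14.3% of all genes called with dmPGE2 and 17.3% with vehicle, and are not read as results about the lists. Pim2, a survival kinase that acts on BAD, was higher by log2 1.04 ± 0.13 with dmPGE2 and 1.09 ± 0.17 with vehicle, and E2f1, which promotes the cell cycle, was lower, at -0.99 ± 0.12 with dmPGE2 and -0.93 ± 0.16 with vehicle. Of 18 p53 target genes, 5 were higher in each arm and 0 lower, led by Plk2. Its difference was 1.13 ± 0.11 with dmPGE2 and 2.13 ± 0.25 with vehicle. Plk2 also rose with dmPGE2 on date 1 (log2 2.15 ± 0.08). Of 16 early cyclic AMP genes, 6 were higher with dmPGE2 (median log2 0.51) and 9 with vehicle (median 0.81), and 0 were lower. The same shares of all genes stand beside these counts. Tnfsf10, which encodes the death ligand TRAIL, was higher by 0.78 ± 0.08 with dmPGE2 and 0.98 ± 0.13 with vehicle. Of the other family members, Bcl2l13 was lower with dmPGE2 (-0.41 ± 0.08, adjusted p = 0.00810). With vehicle edgeR called 0 of 10 tested, with 1 at an unadjusted p under 0.05.

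Levels also differed between the dates themselves, which are no treatment. With dmPGE2, 1 of 10 members was called higher on date 2, where 11.7% of 13279 genes were called, and with vehicle 3 of 10, where 11.0% of 13369 genes were called. On date 2 Pmaip1 had a mean of 15.1 ± 8.49 CPM with dmPGE2, against 3.16 ± 1.49 CPM for date 1 (SD over 4 mice per date). With vehicle the means of Pmaip1 were 16.0 ± 9.70 CPM for date 2 and 0.902 ± 0.566 CPM for date 1. Its libraries of the 2 dates did not overlap in either arm, and the differences were log2 2.26 ± 0.48 (adjusted p = 0.0127) with dmPGE2 and 4.20 ± 0.64 (adjusted p = 0.00152) with vehicle. The call of Pmaip1 with dmPGE2 ended without mouse 477 (adjusted p = 0.0705), and without mouse 483 its difference with vehicle was log2 3.56 ± 0.59.

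For Mcl1 the dates differed in the vehicle libraries, with 662 ± 94.2 CPM on date 2, against 402 ± 69.2 CPM for date 1 (SD, n = 4 mice per date, log2 0.79 ± 0.08, adjusted p = 5.27e-05). In the dmPGE2 libraries Mcl1 had 767 ± 108 CPM on date 2 and 876 ± 151 CPM on date 1 (log2 -0.17 ± 0.08, adjusted p = 0.236). The mean of its vehicle libraries of date 2 lay between the means of the dmPGE2 and the vehicle libraries of date 1. These Mcl1 levels come from the libraries that gave its smaller change on date 2, and are no separate observation. Bid was 1.33-fold higher on date 2 with vehicle (log2 0.41 ± 0.09, adjusted p = 0.0124), a call that ended without mouse 477 (0.0557), and had 0.19 ± 0.10 with dmPGE2. Bax had 0.37 ± 0.12 with dmPGE2 (adjusted p = 0.0655), with no overlap between the dates, and 0.24 ± 0.10 with vehicle. With vehicle all 10 members had values above 0, and with dmPGE2 9 of 10, most of them not called. The median over all tested genes was log2 -0.01 with vehicle and -0.03 with dmPGE2. These signs are not read as a result about the family.

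The early cyclic AMP genes were higher on date 2 in 14 of 16 cases with vehicle (median log2 1.42). With dmPGE2, 1 of 16 was higher and 1 lower (median -0.19). Of all genes, 11.0% were called with vehicle and 11.7% with dmPGE2. The 3 members called with vehicle, and Pmaip1 with dmPGE2, were higher on date 2, as were the neutrophil, myeloid progenitor and monocyte markers. Within the vehicle libraries of date 2, neutrophil sums were lower in old than in young mice. Bid was lower in old mice there too, Mcl1 was higher, and Pmaip1 overlapped between the ages. The part of neutrophils, myeloid progenitors and monocytes in the levels of date 2 was not tested. What the dates mark cannot be told apart from them.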

How the data were processed

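The deposited table held raw read counts per gene, which the authors made from sequenced RNA of 16 libraries (8 mice). The genome build mm10, Subread 1.5.1, featureCounts and STAR 2.5.2b are named in the submitters' processing notes, with no role or order. Every gene exceeded 0.5 CPM in at least 2 libraries, so rarer genes had been removed, and 2504 empty lines held no gene. A count of 0 to 3 in a library lies under 0.231 CPM.

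From these counts, CPM used library totals and RPKM the exonic lengths in the table. All genes passing filterByExpr were tested with edgeR 4.0.16 (quasi-likelihood, robust, TMM; R 4.3.3), Benjamini-Hochberg adjustment over all of them and a threshold of 0.05. dmPGE2 was tested in all 16 libraries with mouse as the replicate block and terms by age, or by date and age. Age and date were tested within each arm (8 libraries). SE was the absolute log2 change over the square root of F. Pairs come from the labels, and deviations from group means correlated at 0.432 to 0.692 within a mouse. The fits were tested on simulated data. Alternatives were DESeq2 1.42.0, RLE size factors, no filter, no robust dispersion, no block, single dates and leaving out each mouse. Intervals and limits cover counting error only. All 10 members are given, with at most 4 called genes of a list by smallest p. The members, the lists and the terms for date were chosen with earlier results of these data known.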

Additional observations from a re-analysis of the deposited data

Results flagged for a closer look

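Mcl1 in mouse 484 stood apart within young dmPGE2: 629 CPM (629.1), against 747 to 766 CPM in the other 3 mice of the group. Without mouse 484, the difference of Mcl1 between old and young mice with dmPGE2 was log2 0.34 ± 0.09 and no longer called (adjusted p = 0.0529, against 0.0133 with all mice).

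Bak1 in mouse 480 stood apart within old vehicle: 1.78 CPM, from 32 counts, against 3.78 to 4.09 CPM in the other 3 mice. In all, 40 groups of 4 libraries were examined and 2 held such a library, a rate that chance gives in about 1 of 20 groups.

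The change of Mcl1 with dmPGE2 differed between the dates, by log2 -0.95 ± 0.07 (date 2 minus date 1, adjusted p = 1.35e-05). The call held in 13 of 13 alternatives. The terms for date were chosen with earlier results of these data known. Between the dates, the Mcl1 level itself differed by log2 0.79 ± 0.08 with vehicle (adjusted p = 5.27e-05). With dmPGE2 it differed by -0.17 ± 0.08 (adjusted p = 0.236). These levels come from the same libraries as the change and are no separate observation. The sums of neutrophil and other myeloid markers differed between the same libraries, and their part in the date difference of Mcl1 was not tested.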

How the results depend on the processing

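Counts of called members moved as follows. After dmPGE2 in all mice the count was 0, and it was 1 (Mcl1) with DESeq2, with dispersion without robust and with dmPGE2 terms by date. In old mice and in young mice it was 0, and 1 (Mcl1) with terms by date. On date 2 it was 0, and 1 (Mcl1) with DESeq2. On date 1 it was 2, 1 with no replicate block and 3 with DESeq2, which added Bcl2l11. In a fit of date 1 alone it was also 2, but with Bcl2l11 in place of Pmaip1. For the date difference it was 1, and 2 with DESeq2, which added Pmaip1. For old against young it was 3 in each arm: with vehicle 1 within date 2 alone, 1 with no term for date and 2 within date 1, with RLE size factors and with no low-count filter, and with dmPGE2 0 within date 2, 1 with no term for date and 2 within date 1. For date 2 against date 1 with dmPGE2 it was 1, and 2 with DESeq2, which added Bax, and with vehicle 3, and 4 with DESeq2, which added Bcl2l11.

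Leaving out each mouse gave 0 to 0 after dmPGE2 in all, old and young mice, for the age difference and on date 2, 1 to 3 on date 1, 1 to 2 for the date difference, 1 to 3 by age with dmPGE2, 2 to 3 by age with vehicle, 0 to 2 by date with dmPGE2 and 3 to 3 by date with vehicle. Age calls with dmPGE2 that ended were Mcl1 without mouse 477, 478, 480 or 484 (adjusted p = 0.0516 to 0.0592) and Bid without 477, 480 or 484 (0.0606 to 0.0657). Bcl2 by age with vehicle held in all 15 alternatives, Mcl1 on date 1 in all 14 and Mcl1 and Pmaip1 by date with vehicle in all 12. No called value changed sign in any of these. Without the replicate block no other count changed. The cause of these shifts was not tested. Depth limits Bak1 and Pmaip1, with as few as 25 counts and 1 count in a library.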
